A study of Mus musculus with 6 samples.

Results

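Liver cells read hormones, bile acids, fatty acids and foreign compounds through nuclear receptors, and the transcripts of 9 such receptors were followed here in mouse liver. The 9 genes were picked by name, for their place in liver physiology, out of 24927 rows in each table: Esr1, Nr3c1, Nr1h4, Nr0b2, Nr1i2, Ppara, Hnf4a, Rxra and Thrb. Each had 1 row, and none shared exon bases with another annotated gene. RNA-seq libraries were made from whole livers of C57BL/6 mice, an inbred strain, labelled male and 10 months old and kept on chow. There were 3 libraries labelled wild type and 3 labelled Cdkl3-/-, a knockout of a cyclin-dependent kinase-like gene placed in the liver by the series' design text. The allele, any driver of the deletion and whether each library came from its own mouse are not stated in the labels, so p-values reflect only how these libraries vary, which may be technical.

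Nuclear receptors are transcription factors that bind DNA through a zinc-finger domain and, in most members, a small lipophilic ligand through a second domain. Steroid receptors such as the glucocorticoid receptor (Nr3c1) and estrogen receptor alpha (Esr1) act as homodimers and are held by chaperones until hormone binds. The bile acid receptor FXR (Nr1h4), the xenobiotic receptor PXR (Nr1i2), the fatty acid receptor PPAR alpha (Ppara) and thyroid hormone receptor beta (Thrb) pair with the retinoid X receptor RXR alpha (Rxra). HNF4A (Hnf4a) binds as a homodimer and holds up the hepatocyte program, and SHP (Nr0b2) lacks the DNA-binding domain and represses other receptors, in liver mainly downstream of FXR.

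The labels were checked first, because each difference below rests on them. Cdkl3 itself measured 0.124 ± 0.0390 FPKM (SD, n = 3) in the wild-type-labelled libraries and 0.139 ± 0.0600 FPKM (SD, n = 3) in the knockout-labelled ones, so its level does not check the genotype label. FPKM counts fragments relative to transcript length and to the depth of the library. Xist, the RNA of the inactive X chromosome, lay between 192 and 292 FPKM in the wild-type-labelled libraries and between 0.0125 and 0.0273 FPKM in the knockout-labelled ones. Ddx3y, a Y-linked gene, showed the reverse, with 0.0694 to 0.207 FPKM against 38.2 to 50.8 FPKM. These values go against the label male in the 3 libraries labelled wild type, and sex and genotype label cannot be told apart in any comparison below. Counted reads numbered 20460000 to 48610000 per library. The library labelled knockout replicate 1 also held kidney transcripts, with 5264 FPKM of Kap, against at most 5.72 FPKM in the other libraries. Hepatocyte markers summed to 1632 to 2295 FPKM in the wild-type-labelled libraries and to 2736 to 4006 FPKM in the knockout-labelled ones, and 6 of 7 tested markers rose and none fell, beside 33.7% of all tested genes higher. A filter required at least 1 FPKM in at least 3 libraries. Of these 7, 2 were under 1 FPKM in every wild-type-labelled library and passed it by way of the knockout-labelled ones. Such counts, here and below, leave out genes at 1 FPKM in some but not all wild-type-labelled libraries, which also needed the knockout-labelled ones. Without knockout replicate 1, 4 of 5 tested markers rose, beside 24.9% of all tested genes.

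Promoter sequence is shown for the 3 receptors whose transcripts changed, to set beside the values that follow. The windows are the 250 bases upstream of RefSeq transcription starts in GRCm38.p6, written 5′ to 3′ on the strand of the gene. Capitals mark a match, on either strand, to AGGTCA (the core hexamer bound by many nuclear receptors), GTTAAT (part of the HNF1 site) or TTCNNNGAA (the STAT5-type site). Among all 32851 windows of this length, 14% held AGGTCA, 6.43% held GTTAAT and 7.02% held TTCNNNGAA. A match describes letters only and is no evidence of binding.
Nr1h4, chr10:89506659-89506908, minus strand: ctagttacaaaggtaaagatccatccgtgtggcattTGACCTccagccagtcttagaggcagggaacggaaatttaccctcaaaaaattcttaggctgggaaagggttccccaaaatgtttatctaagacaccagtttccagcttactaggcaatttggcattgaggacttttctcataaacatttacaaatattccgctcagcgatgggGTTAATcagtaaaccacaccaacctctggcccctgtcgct
Esr1 first start, chr10:4611739-4611988, plus strand: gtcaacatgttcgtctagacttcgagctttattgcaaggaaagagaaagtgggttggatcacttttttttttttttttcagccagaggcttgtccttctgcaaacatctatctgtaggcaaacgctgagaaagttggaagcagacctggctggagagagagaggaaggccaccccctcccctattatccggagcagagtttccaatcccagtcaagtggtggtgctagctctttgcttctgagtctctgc
Esr1 second start, chr10:4709908-4710157, plus strand: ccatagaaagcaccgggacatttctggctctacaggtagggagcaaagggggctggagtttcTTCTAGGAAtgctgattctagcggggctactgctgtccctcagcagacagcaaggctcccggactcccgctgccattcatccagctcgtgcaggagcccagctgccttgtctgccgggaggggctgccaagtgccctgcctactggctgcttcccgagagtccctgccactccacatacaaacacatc
Ppara, chr15:85735526-85735775, plus strand: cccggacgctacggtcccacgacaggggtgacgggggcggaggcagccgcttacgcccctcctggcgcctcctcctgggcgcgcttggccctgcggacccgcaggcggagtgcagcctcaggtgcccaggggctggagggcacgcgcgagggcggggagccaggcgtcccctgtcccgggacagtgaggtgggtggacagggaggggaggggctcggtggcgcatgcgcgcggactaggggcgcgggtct
The Nr1h4 window held AGGTCA on the opposite strand 214 bases before the start and GTTAAT 40 bases before it. In the window of the second Esr1 start, TTCNNNGAA stood 188 bases before the start, and the window of the first start held none of the 3 motifs. The Ppara window held none of them either. Its GC content was 76.4% with 27 CG dinucleotides, against 44.4% with 5 for Nr1h4, 47.6% with 4 and 59.6% with 7 for Esr1, and a median of 52.4% with 6 over all windows. Windows of receptors that are not printed were as rich, with 81.2% and 40 CG dinucleotides at the first start of Rxra and 71.6% and 30 at that of Thrb. Of the receptors not printed, Thrb held the same pair of motifs as Nr1h4 before its first start, AGGTCA at 184 bases and GTTAAT at 44 bases. Nr0b2 held TTCNNNGAA at 91 bases before its start. Hnf4a held GTTAAT at 81 and 74 bases before its second start, and Rxra held AGGTCA at 87 and 48 bases before its second start. Windows were taken for 8 of the 9 receptors. Nr3c1 was not searched, so nothing is known here of motifs before its start.

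Of the 9 receptors, 6 had at least 1 FPKM in at least 3 libraries and were tested, and Rxra, Nr1i2 and Nr0b2 fell under that filter. Nr1h4 and Ppara rose in the knockout-labelled libraries, Esr1 fell, and Hnf4a, Nr3c1 and Thrb did not pass the test. A gene was called when its limma p, adjusted by Benjamini-Hochberg over all 5673 tested genes, was under 0.05. Most tested genes met that rule: 54.1% were called, 33.7% as higher and 20.4% as lower in the knockout-labelled libraries. With 3 receptors of 6 called, the receptors were not called more often than genes at large. The median difference of the 6 was 0.19 on the log2(FPKM + 1) scale and that of all tested genes 0.12. Median centring lowered every difference by 0.28 and turned the split of called genes from 1911 higher and 1157 lower into 1443 higher and 1891 lower. The smallest p that the exact permutation test can give for 3 against 3 libraries is 0.1.

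**Figure D1:**
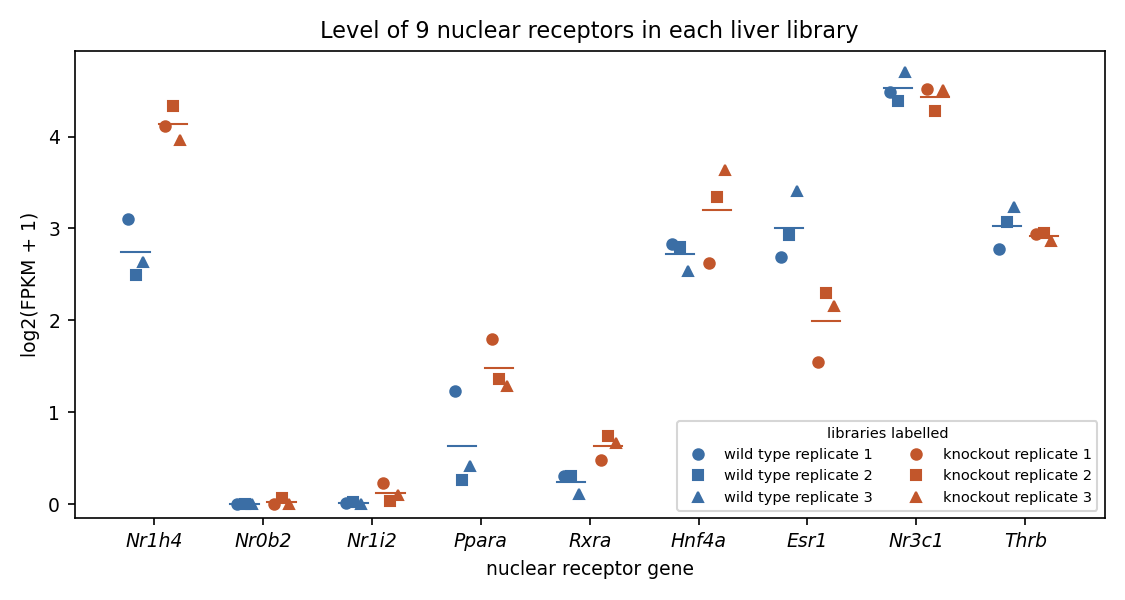
Level of the 9 receptors in each library on the log2(FPKM + 1) scale, with replicates as separate symbols for the wild-type-labelled libraries and labelled knockout. Nr1h4, Ppara and Rxra lie higher and Esr1 lower in the knockout-labelled libraries without overlap of the groups, while the groups of Nr3c1, Thrb and Hnf4a overlap and Nr1i2 and Nr0b2 lie near 0.

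The bile acid receptor FXR was higher in every knockout-labelled library than in any wild-type-labelled one. Nr1h4 measured 7.62, 4.64 and 5.22 FPKM in the wild-type-labelled libraries and 16.3, 19.2 and 14.6 FPKM in the knockout-labelled ones. The lowest library labelled knockout lay well above the highest library labelled wild type. Among all tested genes, 38% were likewise higher in the knockout-labelled libraries without overlap. The group means were 5.82 ± 1.58 FPKM and 16.7 ± 2.31 FPKM (SD, n = 3), a ratio of 2.87. On the log2(FPKM + 1) scale Nr1h4 rose by 1.39 (SE 0.21, 95% interval 0.91 to 1.87, limma adjusted p = 0.0010), and the two-sided exact permutation test gave p = 0.1. These levels came from 246 to 632 counted reads in the wild-type-labelled libraries and from 899 to 1747 in the knockout-labelled ones. Without the library holding kidney transcripts the difference was 1.40 (limma adjusted p = 0.0043). With GC and transcript length trends taken out of every library it was 0.68 (limma adjusted p = 0.011), which is still a rise. In bulk tissue, fewer cells of a type and less RNA per cell cannot be told apart, for this receptor as for the others.

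SHP, the repressor that FXR induces, was listed at or near 0. Nr0b2 was listed at 0 in 5 of the 6 libraries, and the library labelled knockout replicate 2 had 0.0447 FPKM, which is 2 reads. A count of 0 allows up to 3 reads, worth 0.0545 to 0.130 FPKM for this transcript depending on the library. No difference of Nr0b2 was detectable at this depth, and no fold can be given. A 0 here need not mean that a gene is silent, since genes in use in most cells were also listed at 0, such as Ech1, an enzyme of fatty acid oxidation, in all 6 libraries and Prmt1, an arginine methyltransferase, in 5.

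Genes that FXR and SHP act on in bile acid handling are Abcb11, the bile salt export pump, Slc10a1, which takes bile acids up from blood, and Cyp7a1, the rate-limiting enzyme of bile acid synthesis, among others. Of the 16 such genes listed, 14 had usable values and 9 were tested. Of these, 6 rose and none fell, beside 33.7% and 20.4% of all tested genes, with a median difference of 1.09. Of the 9, 1 was under 1 FPKM in every wild-type-labelled library, and among those libraries Abcb11 reached 1 FPKM only in replicate 1. Both passed the filter by way of the knockout-labelled libraries. Abcb11 was at 0.878 ± 0.702 FPKM (SD, n = 3) in the wild-type-labelled libraries and at 26.2 ± 5.37 FPKM (SD, n = 3) in the knockout-labelled ones, a log2 difference of 3.90 (SE 0.28, limma adjusted p = 7.8e-05). Klb, the coreceptor through which FGF15 signals to hepatocytes, rose from 0.224 ± 0.0966 to 1.87 ± 0.341 FPKM (log2 difference 1.23, limma adjusted p = 0.00036). Slc10a1 rose from 33.2 ± 8.59 to 113 ± 38.6 FPKM, a log2 difference of 1.71 (limma adjusted p = 0.0016). The pump Abcc2 rose from 32.7 ± 3.72 to 60.1 ± 7.07 FPKM, a log2 difference of 0.86 (limma adjusted p = 0.0039), a call lost when values were rescaled to the total outside mitochondrial transcripts (limma adjusted p = 0.056). FXR is known to induce Abcb11 and Abcc2 and SHP to repress Slc10a1, so the genes that rose include both induced and repressed ones. Cyp7a1, which SHP represses, measured 182, 207 and 260 FPKM in the wild-type-labelled libraries and 83.0, 219 and 180 FPKM in the knockout-labelled ones. Its groups overlapped, and the log2 difference was -0.52 (SE 0.35, limma adjusted p = 0.24). Without the library holding kidney transcripts, 5 of 8 tested genes of the list rose and none fell, beside 24.9% of all tested genes higher and 20.8% lower. With the GC and length trends removed 6 rose and 1 fell of 9, beside 25.1% and 26.9% of all genes.

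Estrogen receptor alpha moved the other way. Esr1 measured 5.44, 6.61 and 9.60 FPKM in the wild-type-labelled libraries and 1.91, 3.92 and 3.44 FPKM in the knockout-labelled ones. Every library labelled knockout was below every library labelled wild type, a separation seen downward in 25.8% of tested genes, and the lowest value came from the library holding kidney transcripts. The means were 7.22 ± 2.15 and 3.09 ± 1.05 FPKM (SD, n = 3), so the level labelled wild type was 2.34 times the other. Esr1 fell by 1.01 on the log2(FPKM + 1) scale (SE 0.26, 95% interval -1.62 to -0.40, limma adjusted p = 0.013, exact permutation p = 0.1). Without knockout replicate 1 the log2 difference was -0.78 (limma adjusted p = 0.035). Values rested on 2680 to 4387 reads in the wild-type-labelled libraries and 640 to 2116 in the knockout-labelled ones.

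Among 10 listed genes that estrogen receptors are known to act on, 5 were tested, 2 rose and 2 fell, with a median difference of -0.37. Of all tested genes, 33.7% rose and 20.4% fell. Igfbp4, a binding protein for insulin-like growth factors, rose from 0.830 ± 0.657 to 8.30 ± 4.29 FPKM (SD, n = 3), a log2 difference of 2.31 (limma adjusted p = 0.0012). Among the wild-type-labelled libraries Igfbp4 reached 1 FPKM only in replicate 1, so it passed the filter by way of the knockout-labelled ones. Ccnd1, the cyclin that drives entry into the cell cycle, fell from 10.6 ± 6.75 to 2.45 ± 0.897 FPKM, a log2 difference of -1.62 (limma adjusted p = 0.011). Igf1, the growth factor that liver secretes, fell from 195 ± 39.8 to 110 ± 21.7 FPKM, a log2 difference of -0.82 (limma adjusted p = 0.017). The Igf1 call was lost with the GC and length trends removed (-0.44, limma adjusted p = 0.15), and without knockout replicate 2 or 3 or wild type replicate 2 or 3 (limma adjusted p = 0.054, 0.067, 0.061 and 0.060). The list thus split evenly between directions in the main fit. With the GC and length trends removed 2 rose and 1 fell of 5, beside 25.1% and 26.9% of all genes. Over the 23 alternatives the number that fell ran from 0 to 3 and the number that rose from 1 to 3.

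PPAR alpha, which drives fatty acid oxidation in fasting, was low in all libraries. Ppara measured 1.35, 0.198 and 0.331 FPKM in the wild-type-labelled libraries and 2.47, 1.56 and 1.43 FPKM in the knockout-labelled ones. The groups did not overlap, as for 38% of tested genes in that direction. Wild type replicate 1 came within 0.1 FPKM of the lowest library labelled knockout and stood apart from its own group. The means were 0.628 ± 0.632 and 1.82 ± 0.562 FPKM (SD, n = 3), a ratio of 2.90, from 26 to 187 and 147 to 237 reads. On the log2(FPKM + 1) scale Ppara rose by 0.84 (SE 0.27, 95% interval 0.22 to 1.46, limma adjusted p = 0.029, exact permutation p = 0.1). Among the wild-type-labelled libraries Ppara reached 1 FPKM only in replicate 1, so it passed the filter by way of the knockout-labelled ones. In the fit without a filter it was not called (limma adjusted p = 0.089). The call of Ppara depended on the processing more than those of Nr1h4 and Esr1. With the GC and length trends removed the difference was 0.16 (limma adjusted p = 0.62), and without knockout replicate 1, knockout replicate 2, wild type replicate 2 or wild type replicate 3 the adjusted p was 0.092, 0.062, 0.10 and 0.096. Without wild type replicate 1 the difference was 1.14 (limma adjusted p = 0.0031).

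PPAR alpha targets did not share a direction. Of 30 listed, 21 were tested, 7 rose and 9 fell, beside 33.7% and 20.4% of all tested genes, with a median difference of -0.54. Of the 21, 2, Cpt2 among them, were under 1 FPKM in every wild-type-labelled library and passed the filter by way of the knockout-labelled ones. Cpt2, which frees acyl groups from carnitine inside mitochondria, rose from 0.281 ± 0.170 to 4.44 ± 1.29 FPKM (SD, n = 3), a log2 difference of 2.07 (limma adjusted p = 0.00021). Fabp1, the liver fatty acid binding protein, rose with a log2 difference of 3.14 (limma adjusted p = 0.00015). Acot3, a peroxisomal acyl-CoA thioesterase with close paralogs that share reads, fell by 3.90 (limma adjusted p = 3.5e-05). Vnn1, the pantetheinase vanin 1, fell from 174 ± 36.1 to 32.3 ± 10.2 FPKM, a log2 difference of -2.43 (limma adjusted p = 0.00035). With the trends removed 4 rose and 10 fell, beside 25.1% and 26.9% of all genes. Without knockout replicate 1, 5 rose and 8 fell of 19 tested, beside 24.9% and 20.8% of all genes.

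**Figure D2:**
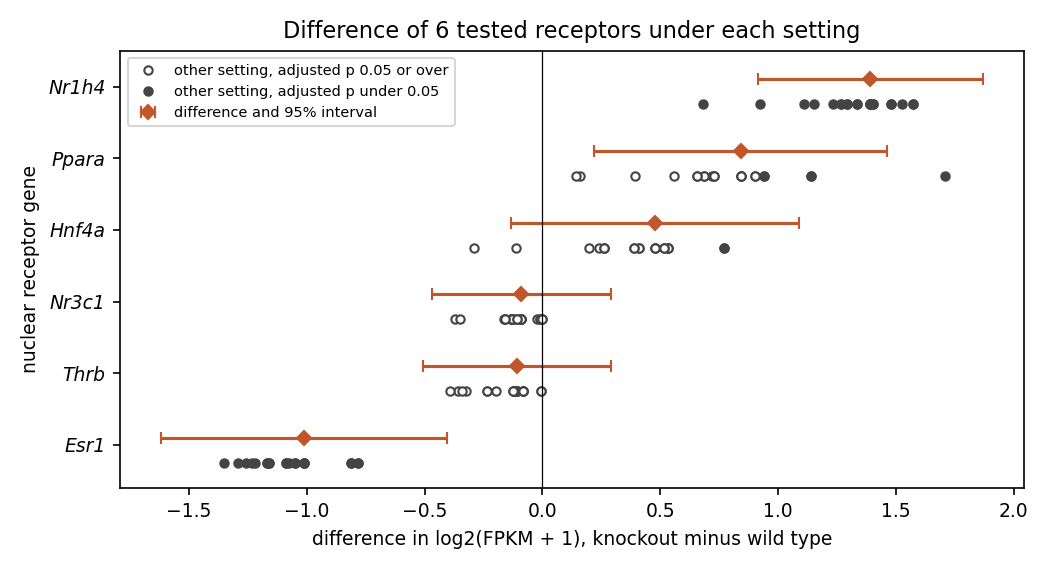
Difference in log2(FPKM + 1), knockout minus wild type label, for the 6 tested receptors, as diamonds with 95% intervals and, below each, as circles the value under each other setting, filled where the adjusted p was under 0.05. Nr1h4 lies above 0 and Esr1 below 0 with filled circles throughout, Ppara has open circles down to 0.14, and Hnf4a has circles on both sides of 0.

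HNF4A, the receptor that sustains hepatocyte genes, did not pass the test. Hnf4a measured 6.09, 5.94 and 4.80 FPKM in the wild-type-labelled libraries and 5.14, 9.11 and 11.4 FPKM in the knockout-labelled ones. The groups overlapped because knockout replicate 1, the library holding kidney transcripts, lay among the wild-type-labelled libraries. The means were 5.61 ± 0.706 and 8.57 ± 3.18 FPKM (SD, n = 3), a log2 difference of 0.48 (SE 0.27, 95% interval -0.13 to 1.09, limma adjusted p = 0.16, exact permutation p = 0.3). Without that library the difference was 0.77 (limma adjusted p = 0.017), and with the GC trend removed it was -0.29 (limma adjusted p = 0.32), so its direction was not fixed by these data. Hnf4a is expressed in kidney tubules as well as in liver, and the part of kidney RNA in its level was not tested.

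Genes known to be bound and activated by HNF4A were higher more often than lower. Of 21 listed, 14 were tested, 8 rose and 2 fell, beside 33.7% and 20.4% of all tested genes, with a median difference of 1.14. Of the 14, 2 were under 1 FPKM in every wild-type-labelled library, and among those libraries Dio1 reached 1 FPKM only in replicate 1. These genes passed the filter by way of the knockout-labelled libraries. Dio1, the deiodinase that makes active thyroid hormone, rose from 1.19 ± 0.692 to 18.8 ± 7.08 FPKM (SD, n = 3), a log2 difference of 3.16 (limma adjusted p = 0.00022). Serpina1a, an alpha-1 antitrypsin gene with near-identical paralogs, and Ttr, the thyroxine carrier transthyretin, rose with log2 differences of 3.98 and 2.27 (limma adjusted p = 0.00013 and 0.00064). Several of these genes are also hepatocyte markers, so the list is not independent of the marker sums given above. With the trends removed 6 rose and 1 fell, beside 25.1% and 26.9% of all genes. Without knockout replicate 1, 5 rose and 2 fell of 12, beside 24.9% and 20.8% of all genes.

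Other transcription factors of the hepatocyte network gave calls that depended on the processing. Of 14 listed, 7 were tested, 3 rose and 1 fell, beside 33.7% and 20.4% of all tested genes. Of the 7, 1 was under 1 FPKM in every wild-type-labelled library, and among those libraries Onecut1 reached 1 FPKM only in replicate 1. Both passed the filter by way of the knockout-labelled libraries. Onecut1, a cut-homeodomain factor of liver development, rose with a log2 difference of 0.64 (limma adjusted p = 0.037) and had 0.05 (limma adjusted p = 0.86) with the trends removed and 0.47 (limma adjusted p = 0.11) without knockout replicate 1. Foxa1, a pioneer factor, rose with a log2 difference of 0.57 (limma adjusted p = 0.048), and turned to -0.22 (limma adjusted p = 0.32) with the trends removed. Without knockout replicate 2 or 3 or wild type replicate 2 or 3 the Foxa1 call was also lost (limma adjusted p = 0.14, 0.15, 0.15 and 0.090), as was that of Onecut1 without knockout replicate 2 or wild type replicate 2 or 3 (limma adjusted p = 0.10, 0.10 and 0.11). Gata6 fell with a log2 difference of -0.44 (limma adjusted p = 0.045), a call lost without knockout replicate 1 or 2 or wild type replicate 2 or 3 (limma adjusted p = 0.11, 0.14, 0.12 and 0.12). With the trends removed, none of the 7 rose and 3 fell, beside 25.1% and 26.9% of all genes.

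The glucocorticoid receptor was the highest of the 9 and did not pass the test. Nr3c1 measured 21.4, 19.9 and 24.97 FPKM in the wild-type-labelled libraries and 22.0, 18.3 and 21.8 FPKM in the knockout-labelled ones. The groups overlapped, with 1 wild-type-labelled library above the others and 1 knockout-labelled library below them. The means were 22.1 ± 2.58 and 20.7 ± 2.06 FPKM (SD, n = 3), a log2 difference of -0.09 (SE 0.17, 95% interval -0.47 to 0.29, limma adjusted p = 0.67, exact permutation p = 0.6). Cytosolic chaperones hold this receptor ready for hormone. Of the 10 listed, 5 were tested, 3 rose and none fell, beside 33.7% and 20.4% of all tested genes. Hsp90aa1 and Ptges3 were the 2 not called (limma adjusted p = 0.23 and 0.37). Of the 5, 1 (Hsp90ab1) was under 1 FPKM in every wild-type-labelled library, and among those libraries Hspa8 reached 1 FPKM only in replicate 1. Both passed the filter by way of the knockout-labelled libraries. With the GC and length trends removed 3 rose and 1 fell, beside 25.1% and 26.9% of all genes. Dnaja1, an HSP40 cochaperone, rose from 39.3 ± 5.11 to 76.4 ± 23.8 FPKM, a log2 difference of 0.90 (limma adjusted p = 0.020), a call lost without knockout replicate 2, knockout replicate 3 or wild type replicate 2 (limma adjusted p = 0.075, 0.068 and 0.069). The chaperones Hsp90ab1 and Hspa8 rose with log2 differences of 3.54 and 3.99 (limma adjusted p = 0.00018 and 0.00049).

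Glucocorticoid targets moved in both directions around this level. Of 18 listed, 10 were tested, 2 rose and 2 fell, beside 33.7% and 20.4% of all tested genes. The median difference of the list was 0.18, which became -0.35 with the trends removed. Tat, the tyrosine aminotransferase long used to follow glucocorticoid action in liver, rose from 66.7 ± 31.8 to 195 ± 52.6 FPKM (SD, n = 3), a log2 difference of 1.59 (limma adjusted p = 0.0052). Dusp1, a MAP kinase phosphatase, rose from 1.53 ± 0.542 to 14.99 ± 11.3 FPKM, a log2 difference of 2.41 (limma adjusted p = 0.0068). Sgk1, a kinase that glucocorticoids induce, fell from 13.7 ± 3.78 to 5.73 ± 2.35 FPKM, a log2 difference of -1.15 (limma adjusted p = 0.011). Klf9, a zinc-finger factor that responds to both glucocorticoid and thyroid hormone, fell from 99.7 ± 14.4 to 55.5 ± 16.7 FPKM, a log2 difference of -0.87 (limma adjusted p = 0.016). With the trends removed Tat and Dusp1 were no longer called (limma adjusted p = 0.13 and 0.061), and the Klf9 call was lost without knockout replicate 2, knockout replicate 3 or wild type replicate 2 (limma adjusted p = 0.064, 0.053 and 0.058).

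Thyroid hormone receptor beta, the main thyroid receptor of hepatocytes, varied little. Thrb measured 5.83, 7.42 and 8.38 FPKM in the wild-type-labelled libraries and 6.67, 6.73 and 6.26 FPKM in the knockout-labelled ones. All 3 libraries labelled knockout lay inside the range of the wild-type-labelled libraries. The means were 7.21 ± 1.29 and 6.55 ± 0.254 FPKM (SD, n = 3), a log2 difference of -0.11 (SE 0.17, 95% interval -0.51 to 0.29, limma adjusted p = 0.62, exact permutation p = 0.5). Of 12 listed thyroid hormone targets 5 were tested, and beside 33.7% and 20.4% of all tested genes 2 rose and 1 fell. Dio1 and Klf9, given above, were among them, and Gpd2, the mitochondrial glycerophosphate dehydrogenase, rose from 3.29 ± 1.46 to 6.78 ± 1.80 FPKM (log2 difference 0.89, limma adjusted p = 0.027). The Gpd2 call was lost with the trends removed (limma adjusted p = 0.072) and without knockout replicate 1, wild type replicate 2 or wild type replicate 3 (limma adjusted p = 0.082, 0.085 and 0.068).

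The shared partner RXR alpha lay under the filter. Rxra measured 0.238, 0.232 and 0.0775 FPKM in the wild-type-labelled libraries and 0.395, 0.666 and 0.588 FPKM in the knockout-labelled ones. The groups did not overlap, as for 27.7% of all 20529 genes in that direction when no filter was set. Means were 0.182 ± 0.0908 and 0.549 ± 0.140 FPKM (SD, n = 3), a ratio of 3.01, with an exact permutation p = 0.1. In the fit without a filter, which called 15.4% of genes higher, it differed by 0.39 on the log2 scale (SE 0.11, 95% interval 0.13 to 0.64, limma adjusted p = 0.047). That call was lost in 14 of 15 other settings, among them a pseudocount of 0.1 FPKM (log2 difference 1.24, limma adjusted p = 0.051). Its values, like those of Thrb, were not whole reads at the annotated transcript length, so their depth is not given.

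PXR, the receptor for drugs and other foreign compounds, was at the edge of detection. Nr1i2 measured 0.0109, 0.0161 and 0 FPKM in the wild-type-labelled libraries, or 1, 2 and 0 reads. In those labelled knockout it measured 0.176, 0.0198 and 0.0733 FPKM, or 11, 2 and 5 reads. The groups did not overlap in FPKM, as for 27.7% of all 20529 genes in that direction when no filter was set. Even so, knockout replicate 2 and wild type replicate 2 had 2 reads each. The highest value came from the library holding kidney transcripts. Pooled over libraries, the read rate was 6.95 times as high in the knockout-labelled libraries, with a 95% exact binomial interval of 2.03 to 36.8 that covers counting error only and takes reads as independent, although most came in pairs. The exact permutation test over libraries gave p = 0.1. In the fit without a filter, which compares libraries, Nr1i2 was not called. Its log2 difference there was 0.11 (95% interval -0.016 to 0.23, limma adjusted p = 0.20).

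Genes that PXR is known to act on were far more abundant and split by direction. Of 21 listed, 11 were tested, 4 rose and 5 fell, beside 33.7% and 20.4% of all tested genes, with a median difference of -0.58. Of the 11, 2, Ces2a among them, were under 1 FPKM in every wild-type-labelled library and passed the filter by way of the knockout-labelled ones. Cyp2c29, a cytochrome P450 of drug metabolism, rose from 39.7 ± 4.34 to 181 ± 17.1 FPKM (SD, n = 3), a log2 difference of 2.16 (limma adjusted p = 0.00011). Ces2a, a carboxylesterase, rose from 0.706 ± 0.191 to 3.45 ± 0.317 FPKM, a log2 difference of 1.39 (limma adjusted p = 0.00032). Cyp2b9 fell from 22.5 ± 12.1 to 0.0859 ± 0.116 FPKM, a log2 difference of -4.29 (limma adjusted p = 0.00018). Cyp3a44 fell from 12.0 ± 5.35 to 0.219 ± 0.173 FPKM, a log2 difference of -3.32 (limma adjusted p = 0.00022). Both Cyp2b9 and Cyp3a44 were under 1 FPKM in every knockout-labelled library and passed the filter by way of the wild-type-labelled ones. Cyp2b9 and Cyp3a44 are known as P450 genes expressed more in female than in male mouse liver, and here they fell together with Xist, so that sex and genotype label cannot be told apart for them. P450 genes have close paralogs, and reads may be split among them. Without knockout replicate 1, 2 of 9 tested rose and 4 fell, beside 24.9% and 20.8% of all genes.

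**Figure D3:**
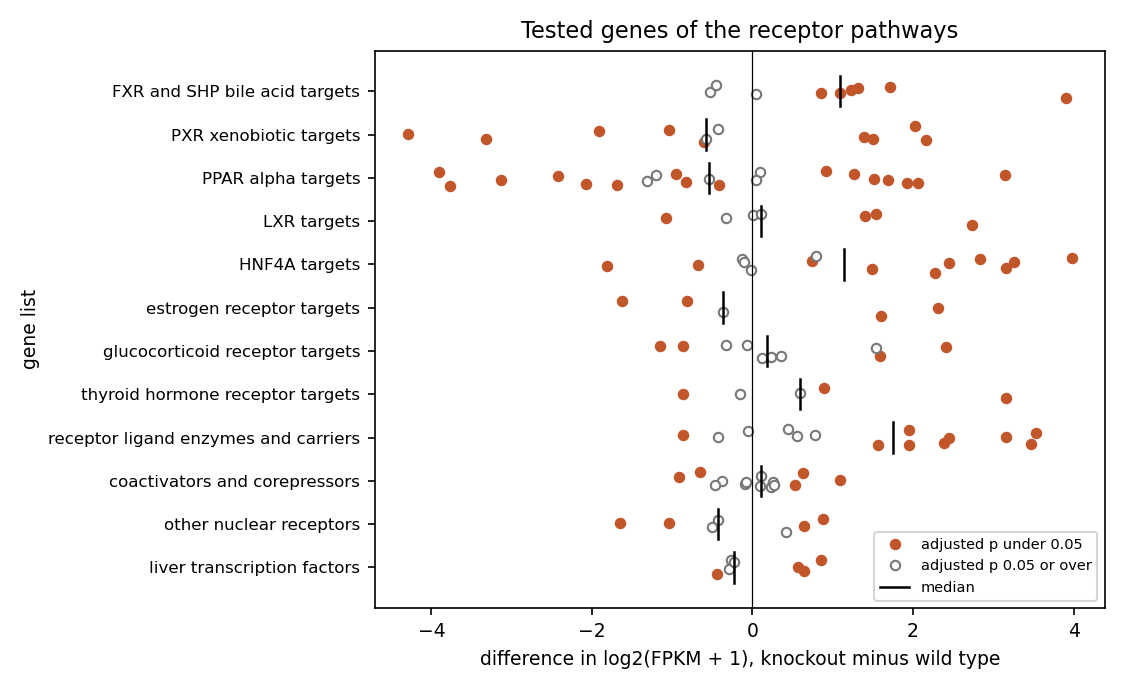
Difference in log2(FPKM + 1), knockout minus wild type label, of each tested gene in the lists around the receptors, as filled points where the adjusted p was under 0.05 and open points otherwise, with a bar at the median of each list. The bile acid and HNF4A lists have medians of 1.09 and 1.14, and the PXR and PPAR alpha lists have called genes on both sides of 0 and medians of -0.58 and -0.54.

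Within a group the receptors could be ordered by FPKM, which is scaled to transcript length. In the wild-type-labelled libraries Nr3c1 was highest and did not overlap the next gene. Esr1, Thrb, Nr1h4 and Hnf4a followed with means between 5.61 and 7.22 FPKM, and neighbours among these 4 overlapped. Ppara and Rxra came next, overlapping each other, and Nr1i2 and Nr0b2 were last. In the knockout-labelled libraries Nr1h4 moved to second place, with a range that overlapped Nr3c1 and not Hnf4a. Esr1 dropped below Thrb without overlap, and its range overlapped that of Ppara.

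The order went with base composition. Among 39 nuclear receptors with usable values, the 9 and 30 others, 11 of 18 with a transcript GC content under 50% had a mean of at least 1 FPKM over the 6 libraries. Between 50% and 55% GC it was 2 of 10, Hnf4a being the highest at 7.09 FPKM, and at 55% or more it was 0 of 11, Rxra being the highest at 0.366 FPKM. Over all genes the shares at 1 FPKM or more were 32.3%, 12.7% and 3.66% in the same classes. Spearman's rho between GC content and mean FPKM over the 39 was -0.59, a description of genes that share libraries, depth and base composition. Rxra and Nr0b2, with 57.0% and 57.8% GC, fell in the last class, and the part of GC content in their low values was not tested.

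**Figure D4:**
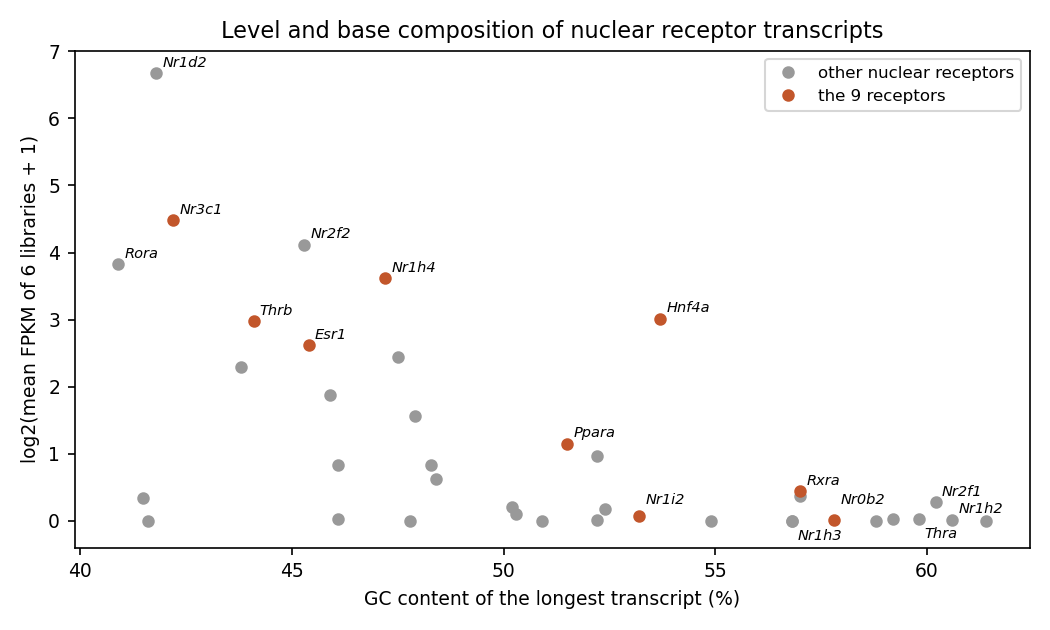
Log2 of the mean FPKM over 6 libraries plus 1, against the GC content of the longest transcript in percent, for 39 nuclear receptors, with the 9 liver receptors in a colour of their own. All receptors at 55% GC or more lie below 1 FPKM, and the highest levels lie under 50% GC.

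Beyond the 9, the family held 37 further listed receptors, of which 7 were tested. Of these, 2 rose and 2 fell, beside 33.7% and 20.4% of all tested genes, with a median difference of -0.43. In every wild-type-labelled library 1 of the 7 was under 1 FPKM, and it passed the filter by way of the knockout-labelled ones. Nr1d2, the clock repressor REV-ERB beta, measured 126, 151 and 177 FPKM in the wild-type-labelled libraries and 78.8, 33.8 and 38.7 FPKM in the knockout-labelled ones. The groups did not overlap, as for 25.8% of tested genes in that direction, and the library holding kidney transcripts was the highest of those labelled knockout. Nr1d2 fell by 1.66 on the log2 scale (SE 0.32, limma adjusted p = 0.0033). Nr3c2, the mineralocorticoid receptor, fell from 6.31 ± 1.48 to 2.57 ± 0.803 FPKM (SD, n = 3), a log2 difference of -1.04 (limma adjusted p = 0.0052).

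Receptors act through coactivators and corepressors, of which 14 of 22 listed were tested. Of these, 3 rose and 2 fell, beside 33.7% and 20.4% of all tested genes. The median difference of 0.10 became -0.16 with the trends removed. In every wild-type-labelled library 1 of the 14 was under 1 FPKM, and it passed the filter by way of the knockout-labelled ones. Ppargc1a, the coactivator PGC-1 alpha of fasting metabolism, fell from 8.25 ± 1.39 to 3.91 ± 0.890 FPKM (SD, n = 3), a log2 difference of -0.92 (limma adjusted p = 0.0060). Nrip1, the corepressor RIP140, fell from 5.16 ± 0.748 to 2.94 ± 0.601 FPKM, a log2 difference of -0.65 (limma adjusted p = 0.018), a call lost without knockout replicate 2 (limma adjusted p = 0.075) or wild type replicate 3 (limma adjusted p = 0.066). Tbl1x, a subunit of the NCoR corepressor complex, rose from 3.70 ± 1.68 to 8.67 ± 0.0957 FPKM, a log2 difference of 1.10 (limma adjusted p = 0.0062). Nsd1, a histone methyltransferase that binds receptors, rose by 0.63 (limma adjusted p = 0.0095) and was not called with the GC trend removed (limma adjusted p = 0.22).

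Likeness of pattern was measured as the root mean square difference between centred log2(FPKM + 1) values over the 6 libraries, among 28 tested receptors, coregulators and liver transcription factors. Nr1h4 was like Tbl1x, a subunit of the NCoR complex, at a distance of 0.207. Ppara stood at 0.213 from the same gene. Esr1 was most like Gata6 (0.393) and Nrip1 (0.399), both at a larger distance than any other gene named here for a receptor. Nr3c1 was most like the acetyltransferases Ep300 (0.0431) and Crebbp (0.0868), and Thrb like the same pair (0.127 and 0.172). Hnf4a was most like Foxa1 (0.267) and Ncoa6 (0.278).

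Enzymes and carriers that make, move or remove the ligands of these receptors gave more rises than falls. Of 18 listed, 14 were tested, 8 rose and 1 fell, beside 33.7% and 20.4% of all tested genes, with a median difference of 1.75. Of the 14, 3 were under 1 FPKM in every wild-type-labelled library, and among those libraries Dio1 reached 1 FPKM only in replicate 1. These genes passed the filter by way of the knockout-labelled libraries. Akr1c6, a 17-beta-hydroxysteroid dehydrogenase, rose from 116 ± 37.6 to 600.2 ± 125 FPKM (SD, n = 3), a log2 difference of 2.39 (limma adjusted p = 0.00034). Hsd17b13, a lipid droplet enzyme that acts on retinol, rose with a log2 difference of 3.47 (limma adjusted p = 0.00036). Without knockout replicate 1, 5 of 11 rose and 1 fell, beside 24.9% and 20.8% of all genes.

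Oxysterol receptors of the LXR pair share RXR with the receptors above. Of 11 listed targets 7 were tested, 3 rose and 1 fell, beside 33.7% and 20.4% of all tested genes. With the GC and length trends removed 2 rose and 2 fell, beside 25.1% and 26.9% of all genes. Smpdl3a, a phosphodiesterase, rose from 4.23 ± 1.02 to 12.9 ± 3.16 FPKM (SD, n = 3), a log2 difference of 1.40 (limma adjusted p = 0.0018). Abcg5, one part of the sterol exporter to bile, rose from 3.38 ± 1.82 to 11.4 ± 2.93 FPKM, a log2 difference of 1.54 (limma adjusted p = 0.0037), and was not called with the trends removed (limma adjusted p = 0.081). Scd1, the stearoyl-CoA desaturase, rose with a log2 difference of 2.74 (limma adjusted p = 0.0010). Abca1, the cholesterol exporter, fell from 85.3 ± 14.7 to 39.4 ± 0.820 FPKM, a log2 difference of -1.08 (limma adjusted p = 0.0017).

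Summed markers of stellate and endothelial cells were lower in the knockout-labelled libraries, and the sums of Kupffer cell and bile duct markers overlapped between labels. Of all tested genes, 33.7% were higher and 20.4% lower. Stellate cell markers summed to 76.2 to 130 FPKM in the wild-type-labelled libraries and to 21.3 to 32.3 FPKM in the knockout-labelled ones, and all 3 tested of the 8 listed fell. Most of that sum was Dcn, at 61.5 to 116 and 15.4 to 28.2 FPKM. Endothelial markers summed to 11.5 to 14.3 and 7.10 to 7.76 FPKM, with 3 of 4 tested lower. Cdh5, 1 of these, was under 1 FPKM in every knockout-labelled library. Under the filter, Clec4g, Pecam1 and Col1a1 were higher in the knockout-labelled libraries without overlap, with means of at most 0.545 FPKM. When no filter was set, 27.7% of all genes were likewise higher without overlap. Stab2, Eng, Colec11 and Pdgfrb overlapped. For Kupffer cells and macrophages the sums were 22.3 to 40.0 and 13.6 to 56.1 FPKM, with 2 of 4 tested lower, and for bile duct cells 50.3 to 68.0 and 29.3 to 50.9 FPKM, with 1 of 2 tested higher. None of the usable markers in these 4 lists was at 0 in all 6 libraries. Esr1 fell beside these sums and Nr1h4 rose beside the hepatocyte sums, and the part of cell makeup in either difference was not tested.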

How the data were processed

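Whole-liver RNA was sequenced in 6 libraries, 3 per genotype label. The authors deposited 1 table per library with FPKM per gene, per the file headers; HISAT2 and GRCm39 were used, per the submitters' processing notes, and the counting tool, annotation and versions were not given in the sources used here. In 1 table the header code differs from the sample title, and the label was used. Identifier and symbol disagreed throughout, matching in 0 of 24927 rows. With exon lengths looked up by symbol in GENCODE M21 (GRCm38), low values (43350) were in 98.95% whole reads within 0.15 read, up to 40 reads, against 30.58% by identifier and 30% by chance, so symbols were used. In a block of 1787 chromosome 1 rows the share was 36.01%, and these and 127 rows without a symbol were left out. The same steps gave the reads counted per library, and reads mostly came in pairs.

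Log2(FPKM + 1) was fitted for 5673 genes that reached 1 FPKM in 3 or more libraries, with limma 3.58.1 (trend and robust moderation, R 4.3.3) on the genotype label, with Benjamini-Hochberg adjustment and a threshold of 0.05. All differences are knockout minus wild type label on that scale, which understates changes of low genes, and ± is SD with n = 3. The fit was tested on simulated data. Single values had a two-sided exact permutation test. Alternatives were a pseudocount of 0.1, no filter, at least 10 FPKM, median centring, quantile normalization, rescaling outside mitochondrial transcripts, removal of loess trends (span 0.5) on GC content or GC content and length (5539 genes), a replicate block, no robust moderation, a threshold of 0.01, and leaving out each library. Members, lists and settings were chosen with earlier results of these data known. Each list names up to 4 called members with the smallest adjusted p. Cyp7a1 was added after its values were seen, as were Kap, Xist and Ddx3y as checks. Other steps used Python 3.11.15 with pandas 2.3.3 and scipy 1.17.1. Some genes on the lists were not analysed here, and some that the naming rule picks are not reported here.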

Additional observations from a re-analysis of the deposited data

How the results depend on the processing

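Nr1h4 kept its direction and its call in all 23 alternatives (log2 difference 0.68 to 1.57), and Esr1 in 21 of 22 (-1.35 to -0.78), the exception being a threshold of 0.01 (-1.01). Nr3c1 and Thrb were not called in any alternative. Ppara was called in 7 of 22. Its log2 difference was 0.16 with the GC and length trends removed, 0.14 with the GC trend removed, 0.56 with median centring, 0.39 with quantile normalization, 0.72 rescaled outside mitochondrial transcripts, 0.84 without a filter or at a threshold of 0.01, and 0.65 to 1.14 with 1 library left out (0.65 to 1.14 over the same genes, including 0.90 without knockout replicate 2 and 0.73 without wild type replicate 3). Hnf4a reversed to -0.29 with the GC trend removed and to -0.11 with GC and length, and ran up to 0.77, then called, without knockout replicate 1 (0.26 to 0.77 with 1 library left out). Rxra, fitted without a filter, had 0.26 (GC and length), 0.27 (GC), 0.27 (median centring), 0.39 (no robust moderation, or a threshold of 0.01), 1.24 (pseudocount 0.1), 0.13 (quantile), 0.32 (rescaled) and 0.32 to 0.46 (1 library left out). Foxa1 reversed to -0.22 and -0.21 with the GC and length and the GC trends removed. The cause of these changes was not tested. Receptors called higher numbered 1 in place of 2 with either trend removed, at 10 FPKM, under all 3 other scalings, at a threshold of 0.01, and 1 to 2 with 1 library left out; lower numbered 0 in place of 1 at 10 FPKM, where Esr1 was not tested, and at 0.01. Without knockout replicate 1 the 2 higher receptors were Nr1h4 and Hnf4a. Of all genes, 468 rose and 559 fell at 10 FPKM (fewer genes tested), 3171 rose without a filter, 1891 fell with median centring, 1761 with quantile normalization and 656 at 0.01; with 1 library left out 966 to 1957 rose and 727 to 1039 fell, the rise counts being 1241, 966 and 1058 without knockout replicates 1, 2 and 3 (1884, 1627 and 1668 over the same genes as tested with all libraries) and the lowest fall count that without wild type replicate 3 (819 over the same genes).

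Same-numbered libraries did not pair: the correlations of their deviations were -0.05, -0.10 and 0.18 for replicates 1, 2 and 3, and not every library correlated best with its own number. With a replicate block 1740 genes rose and 1031 fell, the receptor calls were 2 higher and 1 lower, Hnf4a kept 0.48, and Rxra without a filter had 0.39 (limma adjusted p = 0.11).

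Nr0b2 and Nr1i2 rest on a few reads, and the cause of their low counts was not tested. Precision rests on 3 libraries per group, and the genotype label varies with sex-linked transcripts.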

Other observations

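Members of the family that were under the filter, singled out after their values were seen, stood high in 1 library. Nr4a2, an immediate early nuclear receptor, measured 10.7 FPKM in knockout replicate 1 and 0.178 to 0.277 FPKM in the other 5 libraries. Nr4a3, of the same subfamily, measured 2.82 FPKM there and 0.0338 to 0.206 FPKM elsewhere. Vdr, the vitamin D receptor, which is known from kidney tubules, measured 0.758 FPKM in that library and at most 0.0173 FPKM in the others. Nr1h3 and Nr1h2, the LXR pair, were listed at 0 in 5 and 4 of the 6 libraries.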
